A study of Mus musculus with 15 samples.

Results

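Transcripts of 8 genes for serotonin receptors and the serotonin transporter were followed through mouse dorsal root ganglia (DRG). The ganglia lacked the miR-183 microRNA cluster, had a nerve injury, both or neither. The set of 8 genes was given as a list by name: the receptor genes Htr1a, Htr1b, Htr1d, Htr2b, Htr3a, Htr3b and Htr7 and the serotonin transporter gene Slc6a4, out of 39179 gene identifiers in the count table. All 8 were found in the table, and 7 of them were among the 16976 genes that passed the filter on low counts. Slc6a4 passed it through its injured libraries. Htr2b did not pass it and was given no test.

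Bulk RNA came from lumbar 4 to 6 DRG of 15 mice aged 3 to 6 months, on a mixed background that is mostly C57bl6, and each mouse gave 1 library. The KO SNI group (replicates 13, 19 and 21) carried Wnt1-Cre; mirflox/flox, a conditional deletion of the cluster, and had spared nerve injury (SNI): of the 3 branches of the sciatic nerve, the tibial and common peroneal were tied and cut and the sural was left intact. The control SNI group had the same surgery and held 1 Wnt1-Cre mouse (replicate 15) and 2 wt mice (replicates 18 and 23). The KO naive group (replicates 4, 5, 8 and 9) carried Wnt1-Cre; mirflox/flox without injury. The control naive group held 4 Wnt1-Cre mice (replicates 1, 2, 3 and 6) and 1 wt mouse (replicate 7). Wnt1-Cre is active in the neural crest, from which DRG neurons and their glia both derive, so the deletion is not limited to 1 class of neuron. Every KO mouse carried Cre, whereas only part of the controls did. The time between injury and tissue collection is not given in the sources used here. The animal numbers in the labels fall in separate ranges for SNI and naive mice, and the labels do not say whether these are separate cohorts. Injury and any difference between those ranges cannot be told apart. Within SNI the numbers of the KO mice all lie below those of the control mice, so the same limit holds for KO SNI against control SNI. In naive mice the numbers of KO and control interleave.

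Serotonin is released from platelets and mast cells in injured or inflamed tissue and from descending brainstem fibres in the spinal cord, and sensory neurons respond to it through several receptor families. Receptors of the 5-HT1 family couple to inhibitory G proteins and lower cyclic AMP. The 5-HT2 family couples to phospholipase C, 5-HT7 raises cyclic AMP, and 5-HT3 receptors are channels that open directly on binding serotonin. The transporter SERT, the product of Slc6a4, clears serotonin from the extracellular space and is the target of selective serotonin reuptake inhibitors.

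Libraries held 5.25 to 10.8 M counts, and 3 counts in a library correspond to 0.273 to 0.647 CPM (counts scaled to the library total), a limit that covers counting error only. Control SNI replicate 23 had the fewest counts and the highest share of mitochondrial counts, 7.43% against 2.26% to 3.60% in the other 14 libraries. Its summed level of 5 peptidergic neuron markers was 3060 CPM, against 1515 and 1516 CPM in the other 2 control SNI libraries. The summed level of 10 neuron markers was 10105 to 12659 CPM in all 15 libraries, and none of these markers was at 0 in any group. The microRNA genes themselves summed to 0 (Mir183), 1 (Mir96) and 2 (Mir182) counts in the whole table, and loss of the cluster cannot be checked with so few. All levels below are CPM scaled by TMM factors, and each fold change is a log2 ratio from the edgeR quasi-likelihood fit over the 15 libraries, called where the p adjusted by Benjamini-Hochberg over 16976 genes was under 0.05.

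The mature microRNAs of the deleted cluster are shown because their seeds (bases 2 to 8, in capitals) set which letters were searched for in the receptor transcripts. The sequences are from RefSeq on GRCm38.p6, and all 3 lie on the minus strand of chromosome 6.
miR-183-5p: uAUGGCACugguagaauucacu
miR-96-5p: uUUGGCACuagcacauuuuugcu
miR-182-5p: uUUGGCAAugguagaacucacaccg

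The full matches searched for were GTGCCATA for miR-183-5p, GTGCCAAA for miR-96-5p and TTGCCAAA for miR-182-5p (8mers). Shorter matches were the same letters without the last one (7mer-m8) or without the first one (7mer-A1), and the 7mer-A1 of miR-96-5p is also that of miR-182-5p. The transcript strand of the longest annotated 3′ UTR was searched, and each 8mer contains both shorter forms. Of the 8 transcripts, 2 held a match, Htr1a and Htr1b. The sites are shown 5′ to 3′ with the match in capitals, from GENCODE M21 transcripts on GRCm38.
Htr1a, miR-182-5p 8mer, base 1810 of 2603 after the stop codon: ttttttttaaaTTGCCAAAgttgctggtga
Htr1a, miR-182-5p 7mer-m8, base 2407: ctggaatataaTTGCCAAgtaatagagca
Htr1b, miR-96-5p 8mer, base 814 of 3101 after the stop codon: gatgtgtgctaGTGCCAAAgtctgcaggct
Htr1b, miR-96-5p and miR-182-5p 7mer-A1, base 1750: aatgtttaataTGCCAAAgaagattcaca

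Among 14466 tested genes with an annotated 3′ UTR, 10.2% held an 8mer of any of the 3 microRNAs and 37.2% held any of the matches. The 8mer of miR-182-5p alone was in 5.61% and that of miR-96-5p in 3.35%. A match is a stretch of letters and not a measured site, and the other 6 transcripts have no match only in the UTR searched.

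**Figure D1:**
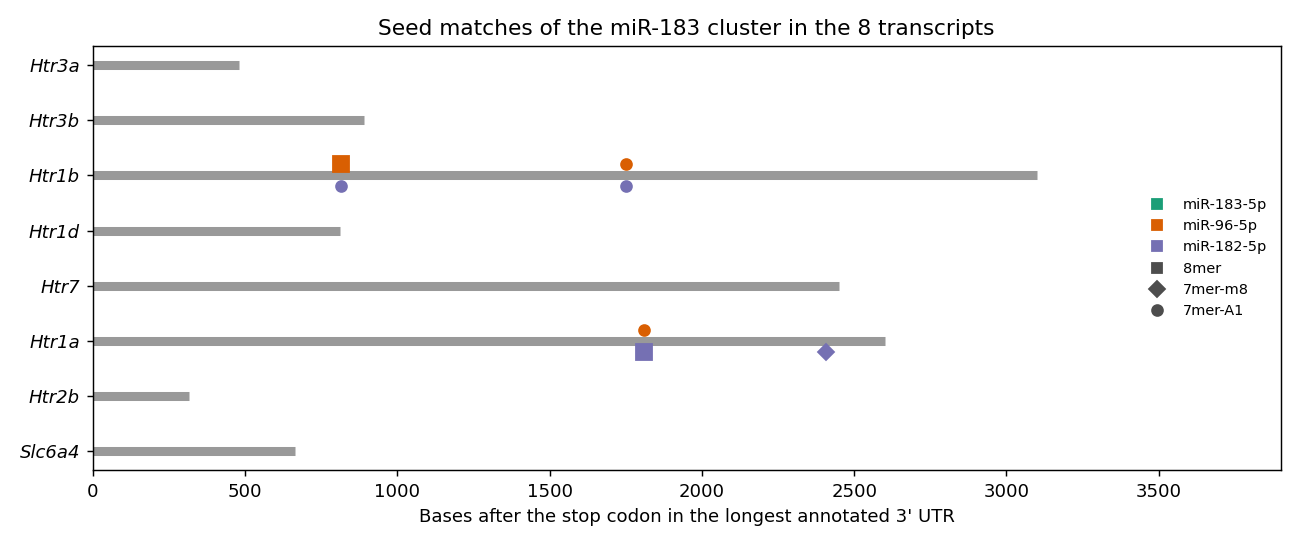
Positions of seed matches along the longest annotated 3′ UTR of the 8 transcripts, in bases after the stop codon. Grey bars are the UTRs, colours are the microRNAs and marker shapes the kinds of match. Htr1a and Htr1b carry matches to miR-96-5p or miR-182-5p, and the other 6 bars carry none.

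Of the 7 tested genes, 2 changed with injury in each genotype and 1 changed with the deletion in naive mice. In KO naive against control naive, 1 of 7 was called, Htr1a, which was lower, beside 1.89% of all tested genes. In control SNI against control naive, 2 of 7 were called, beside 2.48% of all tested genes: Slc6a4 was higher and Htr3a lower. In KO SNI against KO naive, 2 of 7 were called, beside 10.1% of all tested genes: Slc6a4 was higher and Htr3a lower. In KO SNI against control SNI, 0 of 7 were called by edgeR, beside 1.04% of all tested genes, and DESeq2 called 1. At an unadjusted p under 0.05 there were 3 of the 7, beside 22.7% of all tested genes, and DESeq2 called 942 genes in all. The comparisons share libraries: both genotype comparisons and both injury comparisons draw on the same 4 groups. The median log2 fold change of the 7 was -0.23 in KO naive against control naive, beside 0.00 over all tested genes. It was -0.31 beside 0.02 for injury in control, 0.02 beside -0.02 for injury in KO, and -0.03 beside -0.01 for KO SNI against control SNI.

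**Figure D2:**
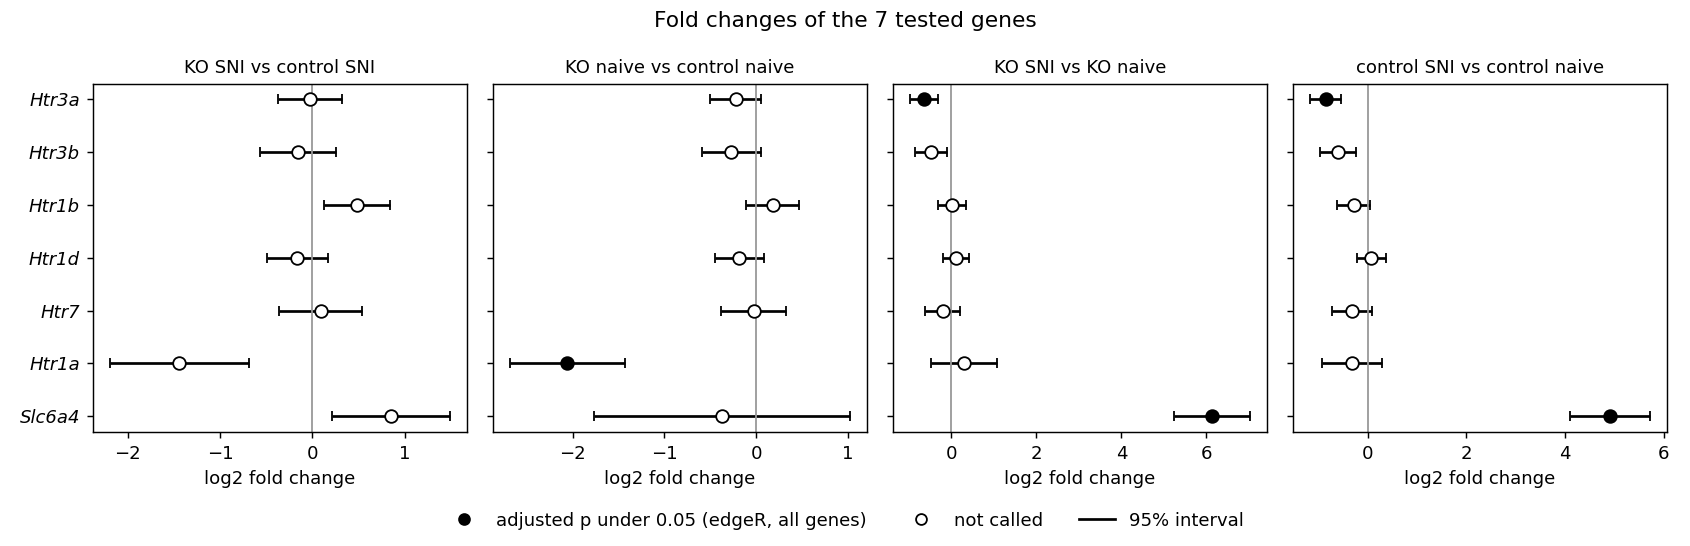
Log2 fold changes of the 7 tested genes in 4 comparisons, with 95% intervals from the edgeR fit over 15 libraries. Filled points have an adjusted p under 0.05. Htr1a is called in KO naive against control naive, and Htr3a and Slc6a4 are called in both injury comparisons. The horizontal scales differ between panels.

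Htr1a (ENSMUSG00000021721, GRCm38 chr13:105443639-105448122, plus strand) encodes the 5-HT1A receptor, which couples to inhibitory G proteins. It measured 3.92, 2.84 and 2.40 CPM in KO SNI replicates 13, 19 and 21, against 12.2, 3.61 and 9.06 CPM in control SNI replicates 15, 18 and 23. In uninjured mice it measured 1.42, 2.97, 2.66 and 2.74 CPM in KO naive replicates 4, 5, 8 and 9, against 10.5, 12.5, 9.15, 10.3 and 8.68 CPM in control naive replicates 1, 2, 3, 6 and 7. Every KO naive library lay below every control naive library, and the lowest control naive value was that of the wt mouse. Groups with no such overlap occurred in 9.63% of tested genes in this comparison. After injury the groups overlapped, because control SNI replicate 18 (wt) was lower than KO SNI replicate 13.

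In KO naive ganglia Htr1a averaged 2.45 ± 0.698 CPM, against 10.2 ± 1.49 CPM in control naive ganglia (SD, n = 4 and n = 5). Its log2 fold change was -2.06 (SE 0.297, 95% interval -2.68 to -1.43, edgeR adjusted p = 0.00107), so the transcript fell to 0.240 of the control level. The gene was called in this comparison under each of the 22 alternatives, with adjusted p up to 0.00716 (without KO naive replicate 8). In bulk ganglia, fewer cells that express a gene and less RNA per cell cannot be told apart.

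After injury Htr1a averaged 3.05 ± 0.781 CPM in KO SNI ganglia, against 8.29 ± 4.35 CPM in control SNI ganglia (SD, n = 3 each). This is a log2 fold change of -1.44 (SE 0.356, 95% interval -2.20 to -0.69), not called by edgeR (adjusted p = 0.0662). Without control SNI replicate 18 the log2 fold change was -1.84 (adjusted p = 0.00257), and without replicate 23 it was -1.38 (adjusted p = 0.136). DESeq2 gave adjusted p = 0.00748 on all libraries, and the controls with Wnt1-Cre alone, of which 1 is injured, gave a log2 fold change of -2.02. Without KO SNI replicate 19 it was -1.40 (edgeR adjusted p = 0.233). This difference was called under 3 of 22 alternatives, with adjusted p up to 0.553 (a fit of the 2 groups alone). Htr1a was not called for injury in either genotype. The log2 fold change was 0.30 (95% interval -0.47 to 1.08) in KO SNI against KO naive and -0.31 (95% interval -0.92 to 0.30) in control SNI against control naive. The control estimate turned to 0.08 without control SNI replicate 18 and to 0.22 with Wnt1-Cre controls only.

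Htr1a is known to be made by a subset of DRG neurons, so marker levels of neuron classes are given beside it. The 8 markers of the Nppb and Sst itch neurons were all lower in KO naive than in control naive, 2 of them called, with a median log2 fold change of -0.72. Their summed level was 547 to 577 CPM in KO naive libraries and 593 to 671 CPM in control naive libraries. The 6 nonpeptidergic markers were also all lower, 3 of them called, with sums of 975 to 1163 CPM in KO naive and 1172 to 1804 CPM in control naive. In naive mice the peptidergic and A-fibre classes did not fall as a list. The 5 peptidergic markers had a median log2 fold change of 0.03, with 3 higher, 2 lower and 0 called. The 7 markers of A-fibre neurons had a median of -0.02, with 3 higher and 4 lower, 1 of them called lower. After injury, 6 of the 8 itch neuron markers were lower in KO SNI than in control SNI, 2 of them called, with a median log2 fold change of -1.08. These sums were 691 to 784 CPM in KO SNI and 772 to 916 CPM in control SNI. Most of each sum is Jak1, at 461 to 557 CPM in the group means, and Nts rose with injury in both genotypes. The 5 markers other than Jak1, Nts and Osmr, a choice made after their values were seen, summed to 28.3 to 51.8 CPM in KO SNI and 66.4 to 117 CPM in control SNI, and to 23.9 to 43.2 CPM in KO naive and 67.3 to 94.3 CPM in control naive. For these 5, KO and control did not overlap in either state, and the lowest control value, 66.4 CPM, was that of control SNI replicate 18. Of the markers left out, Jak1 (log2 fold change 0.07) and Osmr (0.12) were the 2 of the 8 that were higher in KO SNI than in control SNI. With all 8 the injured groups overlapped, so the separation after injury follows in part from the choice of markers. In KO SNI against control SNI the 6 nonpeptidergic markers were also all lower (median -0.28). The 5 peptidergic markers had a median of -0.45, with 2 higher and 3 lower. The 7 A-fibre markers had a median of -0.03, with 3 higher and 4 lower. None of these was called. At an unadjusted p under 0.05 were 3 of the 6, 4 of the 5 and 2 of the 7, beside 22.7% of all tested genes. No marker of these neuron lists was at 0 in any group, and the part of these cells in the Htr1a result was not tested.

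The 3 genes whose log2 CPM, centred over the 15 libraries, stayed closest to that of Htr1a were Il31ra, Ceacam10 and Cilp. Their root mean square differences were 0.42, 0.43 and 0.44 on the log2 scale, where Htr1a itself had an SD of 1.00, out of 13593 genes compared. Il31ra, which encodes a subunit of the interleukin-31 receptor, averaged 14.2 CPM in KO SNI, 32.0 CPM in control SNI, 6.96 CPM in KO naive and 31.6 CPM in control naive. It is also 1 of the 8 itch neuron markers.

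**Figure D3:**
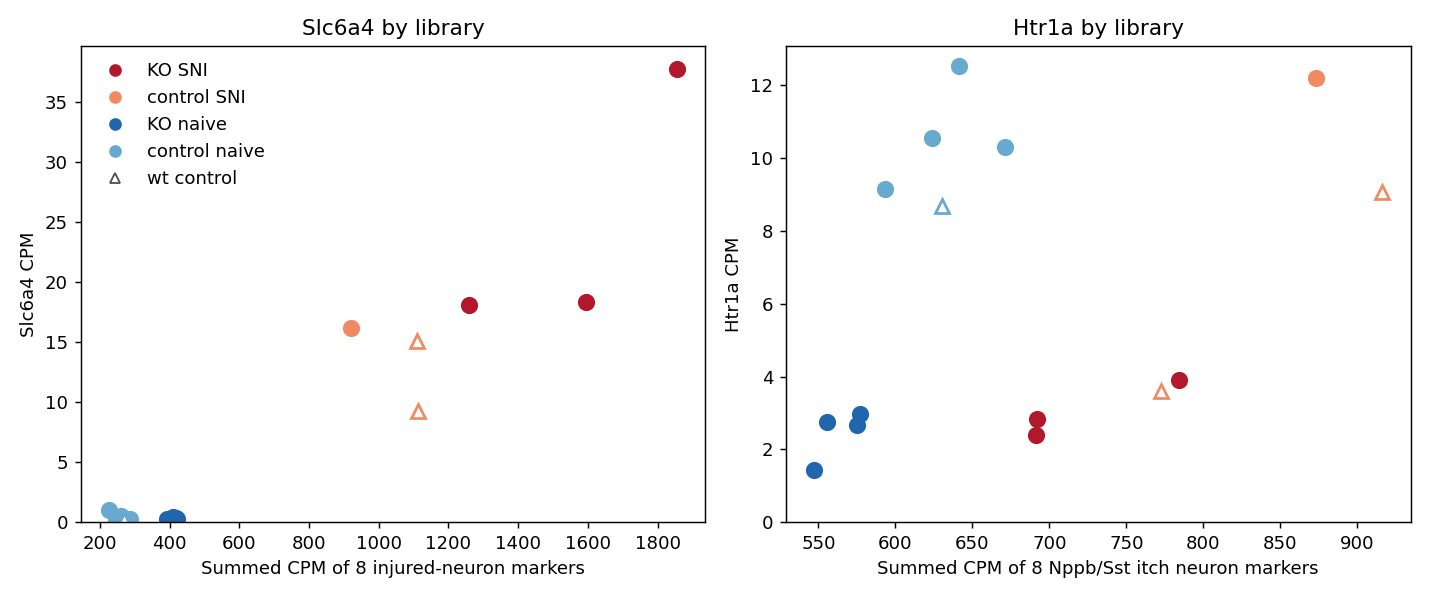
Levels of Slc6a4 (left) and Htr1a (right) in CPM for each library, against the summed CPM of 8 injured-neuron markers (left) and 8 Nppb and Sst itch neuron markers (right). Colours are the 4 groups and open triangles are wt controls, and most of the itch neuron sum is Jak1. Slc6a4 is above 9 CPM only in the 6 injured libraries, and Htr1a is below 4 CPM in all KO libraries and in control SNI replicate 18.

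Htr1b (ENSMUSG00000049511, chr9:81628291-81633828, minus strand) encodes the 5-HT1B receptor, one of the receptors through which triptans act. It measured 37.3, 51.6 and 41.2 CPM in KO SNI libraries, against 37.9, 26.5 and 28.7 CPM in control SNI libraries. In naive mice the values were 54.6, 35.3, 42.8 and 38.7 CPM in KO and 39.4, 40.9, 36.5, 40.1 and 32.8 CPM in control. The KO and control libraries overlapped in both states, and control SNI replicate 15, the Cre carrier, lay with the KO SNI libraries.

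The group means of Htr1b were 43.4 ± 7.40 CPM in KO SNI and 31.0 ± 6.01 CPM in control SNI (SD, n = 3 each). The log2 fold change of 0.48 (SE 0.170, 95% interval 0.12 to 0.84) was not called (edgeR adjusted p = 0.142), and without control SNI replicate 15 it was 0.66 (adjusted p = 0.0189). Without control SNI replicate 23 it was 0.44 (adjusted p = 0.337), and without KO SNI replicate 19 it was 0.34 (adjusted p = 0.377). Only 1 of the 22 alternatives, the fit without control SNI replicate 15, called this difference. With Wnt1-Cre controls only, which leaves 1 injured control, the log2 fold change was 0.20. In naive mice it was 0.18 (95% interval -0.11 to 0.47, adjusted p = 0.728). With injury it was 0.02 in KO and -0.28 in control, neither called. An annotated antisense gene, D430036J16Rik, overlaps 41.1% of the Htr1b span and held 48 to 168 counts per library. The strand setting of the counting is not given in the sources used here, so reads of this pair may not have been told apart.

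Htr1d (ENSMUSG00000070687, chr4:136423524-136444398, plus strand) encodes the 5-HT1D receptor, another triptan target, found in peptidergic sensory neurons. It measured 28.6, 25.9 and 32.6 CPM in KO SNI, against 39.5, 26.8 and 30.9 CPM in control SNI. The naive values were 30.5, 23.1, 25.8 and 29.0 CPM in KO and 29.1, 28.0, 35.7, 33.5 and 27.4 CPM in control. All 4 groups overlapped. Log2 fold changes were -0.16 (KO SNI against control SNI), -0.19 (KO naive against control naive), 0.10 (injury in KO) and 0.08 (injury in control), with adjusted p of 0.545, 0.662, 0.677 and 0.829. The widest of the 4 intervals was -0.49 to 0.16, in KO SNI against control SNI, so changes of the size seen for Htr1a between genotypes lie outside all of them.

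The ratio of Htr1b to Htr1d, each per kb of exon, was 1.03 ± 0.279 in KO SNI and 0.650 ± 0.0198 in control SNI (SD, n = 3 each). In naive ganglia it was 1.07 ± 0.132 in KO and 0.844 ± 0.113 in control (SD, n = 4 and n = 5). The 3 control SNI ratios, 0.630 to 0.670, lay below all 3 KO SNI ratios, 0.856 to 1.35, whereas the naive ranges of 0.903 to 1.21 in KO and 0.694 to 0.989 in control overlapped. No test was made of this ratio.

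Htr2b (ENSMUSG00000026228, chr1:86099026-86111970, minus strand) encodes the 5-HT2B receptor, which couples to phospholipase C. It held 50 counts over all libraries, with 1, 1 and 4 counts in KO SNI and 2, 7 and 3 counts in control SNI. Counts were 1, 4, 1 and 1 in KO naive and 5, 4, 5, 6 and 5 in control naive. Its whole span lies opposite to the proteasome subunit gene Psmd1, which held 999 to 2557 counts per library, so counts this low could hold Psmd1 reads. With no filter on low counts, the log2 fold change was -1.34 in KO naive against control naive (SE 0.571, edgeR adjusted p = 0.499), the unadjusted p was 0.0269, and no comparison called it. All 4 KO naive values, 0.0950 to 0.397 CPM, lay below all 5 control naive values, 0.459 to 0.547 CPM. These values rest on 1 to 6 counts, and such separation occurred in 9.63% of tested genes in this comparison.

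Htr3a (ENSMUSG00000032269, chr9:48899213-48911099, minus strand) encodes the subunit that every 5-HT3 channel needs, and it had the highest level of the 8. It measured 112, 76.5 and 73.3 CPM in KO SNI, against 136, 139, 150 and 122 CPM in KO naive. In controls it measured 89.1, 77.4 and 101 CPM after injury, against 173, 191, 164, 132 and 142 CPM in naive mice. Every injured library of either genotype lay below every naive library of the same genotype. Groups did not overlap in 34.2% of tested genes in KO SNI against KO naive and in 8.21% in control SNI against control naive.

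Htr3a fell by 0.65 on the log2 scale with injury in KO (SE 0.155, 95% interval -0.98 to -0.32, edgeR adjusted p = 0.0143) and by 0.85 in control (SE 0.151, 95% interval -1.17 to -0.53, adjusted p = 0.00357). The KO call was lost without KO naive replicate 8 (adjusted p = 0.0539), without KO SNI replicate 19 (0.0974) and without KO SNI replicate 21 (0.0853). Without control SNI replicate 23 the control value was -0.94 (adjusted p = 0.00314). The control call was lost when only the Wnt1-Cre controls were kept, which leaves 1 injured control (log2 fold change -0.87, adjusted p = 0.0971). Htr3a was not called between genotypes. Means were 87.4 ± 21.6 CPM in KO SNI and 89.2 ± 11.9 CPM in control SNI (SD, n = 3 each), a log2 fold change of -0.03 (95% interval -0.38 to 0.32). In naive mice the means were 137 ± 11.5 CPM in KO and 160 ± 24.0 CPM in control (SD, n = 4 and n = 5), a log2 fold change of -0.23 (95% interval -0.51 to 0.06). An antisense gene, Gm32335, is annotated over 57.0% of the Htr3a span and had no row in the count table.

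Htr3b (ENSMUSG00000008590, chr9:48935008-48964990, minus strand) encodes the subunit that joins 5-HT3A in heteromeric channels, and it lies 23908 bases from Htr3a. It measured 19.7, 11.1 and 13.8 CPM in KO SNI, against 19.7, 19.5, 22.0 and 20.9 CPM in KO naive. Controls measured 15.4, 14.04 and 20.7 CPM after injury, against 24.8, 31.1, 23.3, 22.7 and 22.2 CPM in naive mice. The control groups did not overlap, as in 8.21% of tested genes in that comparison, and the KO groups did, through KO SNI replicate 13. With injury the log2 fold change was -0.48 in KO (SE 0.178, edgeR adjusted p = 0.0990) and -0.59 in control (SE 0.173, adjusted p = 0.0918), neither called. Without KO SNI replicate 13 the KO value was -0.72 (adjusted p = 0.0179) and the control value -0.59 (adjusted p = 0.0440). Without control SNI replicate 23 the control value was -0.74 (adjusted p = 0.0155) and the KO value -0.46 (adjusted p = 0.0351). The KO value was also called in a fit of its 2 groups alone (adjusted p = 0.0411). With Wnt1-Cre controls only, which leaves 1 injured control, the KO value was -0.47. Of the 22 alternatives, 4 called the KO value and 2 the control value. The highest adjusted p was 0.392 in KO (without KO SNI replicate 19, log2 fold change -0.30) and 0.224 in control (without control SNI replicate 18).

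In KO naive mice all 4 Htr3b values lay below the 5 control naive values, with means of 20.5 ± 1.13 CPM in KO naive and 24.8 ± 3.66 CPM in control naive (SD), but the log2 fold change of -0.27 was not called (adjusted p = 0.548). Such separation occurred in 9.63% of tested genes in this comparison. Among 13593 genes, Htr3b was the one whose pattern over the 15 libraries lay closest to that of Htr3a, with a root mean square difference of 0.17 on the log2 scale. The next were Cntn4 (0.18) and Rab37 (0.19), and Htr3a itself had an SD of 0.44. The ratio of Htr3a to Htr3b per kb was 6.91 ± 0.964 in KO SNI, 6.24 ± 0.527 in control SNI, 7.73 ± 0.657 in KO naive and 7.49 ± 0.611 in control naive (SD). The ranges of the ratio overlapped between KO SNI (6.15 to 7.99) and KO naive (6.77 to 8.25), and did not overlap between control SNI (5.65 to 6.68) and control naive (6.72 to 8.13). No test was made of this ratio between subunits.

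**Figure D4:**
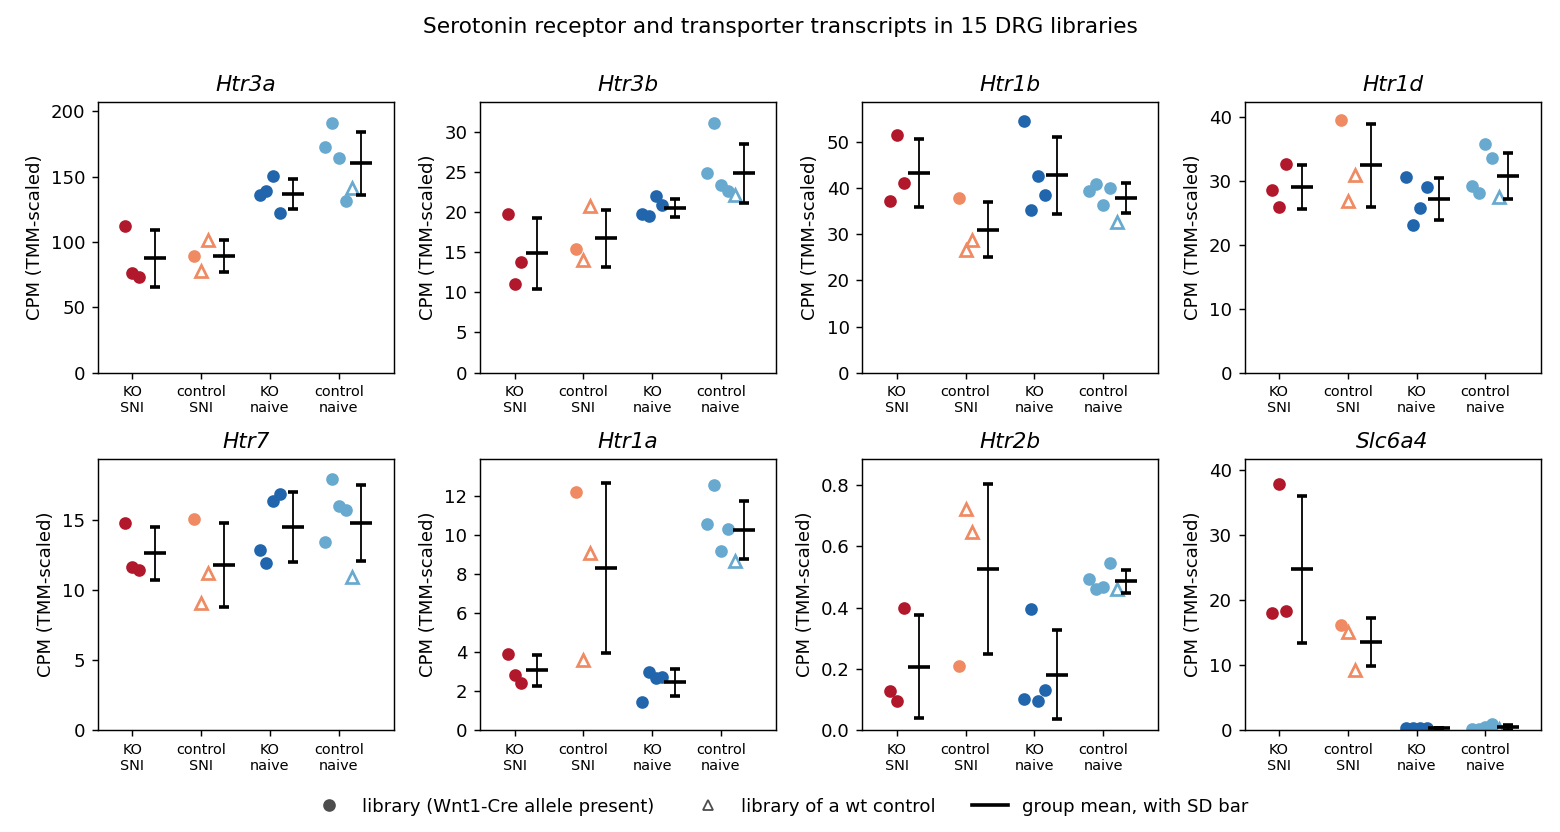
Level of each of the 8 transcripts in CPM in the 15 libraries, by group. Points are libraries, open triangles are libraries of wt controls, and horizontal bars with whiskers are group means and SD. Htr3a is lower in both SNI groups than in the naive groups, Htr1a is lower in KO naive than in control naive, and Slc6a4 is near 0 in all naive libraries.

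Htr7 (ENSMUSG00000024798, chr19:35958734-36057507, minus strand) encodes the 5-HT7 receptor, which raises cyclic AMP through stimulatory G proteins. It measured 14.8, 11.6 and 11.4 CPM in KO SNI, against 15.02, 9.09 and 11.2 CPM in control SNI. Naive values were 12.8, 11.9, 16.3 and 16.9 CPM in KO and 13.4, 17.9, 16.0, 15.7 and 10.9 CPM in control. All 4 groups overlapped, and no comparison called it. Its log2 fold change was 0.09 in KO SNI against control SNI (95% interval -0.36 to 0.54) and -0.03 in KO naive against control naive (95% interval -0.39 to 0.33). With injury it was -0.20 in KO (95% interval -0.61 to 0.21) and -0.32 in control (95% interval -0.72 to 0.08).

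Slc6a4 (ENSMUSG00000020838, chr11:76998603-77032340, plus strand) encodes SERT and had the largest fold change of the 7 tested genes in both injury comparisons. Naive ganglia had almost none: counts were 3, 4, 4 and 2 in KO naive libraries and 2, 2, 6, 11 and 2 in control naive libraries, at or near the level of 3 counts. Injured ganglia had 18.1, 37.8 and 18.3 CPM in KO SNI and 16.2, 15.1 and 9.28 CPM in control SNI, from 143 to 399 counts in KO SNI and 43 to 155 counts in control SNI. Every injured library was above every naive library. Injured and naive groups of the same genotype did not overlap in 34.2% of tested genes in KO and in 8.21% in control. The log2 fold change was 6.13 in KO SNI against KO naive (SE 0.422, 95% interval 5.24 to 7.03, edgeR adjusted p = 1.26e-07) and 4.91 in control SNI against control naive (SE 0.383, 95% interval 4.09 to 5.72, adjusted p = 9.79e-07). Both calls held under all 22 alternatives. The naive side rests on 13 counts in KO and 23 counts in control, and 11 of these 23 are from control naive replicate 6, without which the control value was 5.49.

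Between injured genotypes, all 3 KO SNI libraries had more Slc6a4 than all 3 control SNI libraries. Means were 24.7 ± 11.3 CPM in KO SNI and 13.5 ± 3.70 CPM in control SNI (SD, n = 3 each). Such separation of the 2 groups occurred in 16.2% of tested genes, and the log2 fold change of 0.85 (SE 0.302, 95% interval 0.21 to 1.49) was not called (edgeR adjusted p = 0.143, range over the alternatives 0.0553 to 0.684). The highest KO SNI value is that of replicate 19, and the lowest control SNI value is that of replicate 23. Without KO SNI replicate 19 the log2 fold change was 0.41 (adjusted p = 0.483), and without control SNI replicate 23 it was 0.68 (adjusted p = 0.371). In KO naive against control naive it was -0.38 (95% interval -1.77 to 1.02), and it was 0.20 without control naive replicate 6.

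Injury markers, like Slc6a4, were higher in injured than in naive ganglia. The 8 markers of injured neurons, among them Atf3 and Sprr1a, were all called higher with injury in both genotypes. Their summed level was 1260 to 1855 CPM in KO SNI, 922 to 1111 CPM in control SNI, 392 to 420 CPM in KO naive and 226 to 287 CPM in control naive. The gap between the naive sums is that of Gap43, a growth cone protein gene, at 357 CPM in KO naive and 195 CPM in control naive. Of the 8 markers 5 were lower in KO naive than in control naive, and without Gap43 the sums were 50.3 to 55.7 CPM in KO naive and 54.8 to 67.8 CPM in control naive. KO SNI replicate 19 had both the highest Slc6a4 and the highest marker sum. Within control SNI the order was the other way. Replicate 15 had the highest Slc6a4 (16.2 CPM) and the lowest sum (922 CPM), and replicate 23 the lowest Slc6a4 (9.28 CPM) and the highest sum (1111 CPM). Mast cells and platelets carry SERT as well. Of 6 tested mast cell markers, 5 were higher with injury in each genotype, with median log2 fold changes of 0.63 in KO and 0.80 in control. The protease Tpsb2 was called in KO (log2 fold change 1.20, adjusted p = 0.0232), and in control Cpa3, Cma1 and Tpsb2 had an unadjusted p under 0.05 and none was called. The sum of all 8 mast cell markers is mostly Kit, and it overlapped between states, at 94.2 to 122 CPM in KO SNI, 91.2 to 109 CPM in control SNI, 102 to 117 CPM in KO naive and 89.6 to 111 CPM in control naive. Without Kit, a choice made after the values were seen, the sums were 19.6 to 26.7 CPM in KO SNI, 15.4 to 47.3 CPM in control SNI, 12.1 to 16.4 CPM in KO naive and 8.73 to 23.7 CPM in control naive. KO SNI and KO naive then did not overlap, and the control groups did. Platelet marker sums were 17.8 to 22.0 CPM in KO SNI, 14.7 to 55.0 CPM in control SNI, 13.98 to 19.2 CPM in KO naive and 11.8 to 29.7 CPM in control naive. Of 4 tested platelet markers, Gp1bb was called higher in KO SNI, both against KO naive (log2 fold change 1.21, adjusted p = 5.15e-04) and against control SNI (1.02, adjusted p = 0.0224). Against KO naive the median of the 4 was 0.22, with 3 higher and 1 lower. Against control SNI it was -0.59, with 2 higher and 2 lower. The lower ones, Pf4 (-1.33) and Ppbp (-2.31), were not called. For injury in control none was called, 2 (Pf4 and Gp1bb) had an unadjusted p under 0.05, and the median of the 4 was 1.02. Macrophage marker sums were 165 to 223 CPM in KO SNI and 136 to 217 CPM in control SNI, against 98.9 to 132 CPM in KO naive and 83.0 to 99.95 CPM in control naive. No marker of these lists was at 0 in any group, and the part of these cells in the Slc6a4 result was not tested.

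The 3 genes closest to Slc6a4 over the 15 libraries were Lipn, Atf3 and Anxa10, with root mean square differences of 0.61, 0.62 and 0.73 on the log2 scale, where Slc6a4 had an SD of 2.58. Atf3, a transcription factor of the axon injury response, averaged 224 CPM in KO SNI, 151 CPM in control SNI, 5.61 CPM in KO naive and 7.86 CPM in control naive.

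The injury response itself was not shown to differ between genotypes for any of these genes. The test of that difference (injury in KO minus injury in control) called 0% of the 16976 tested genes with edgeR, with 2281 genes and 0 of the 7 at an unadjusted p under 0.05, while DESeq2 called 13 genes and limma-voom 0. The difference was 1.23 for Slc6a4 (95% interval -0.32 to 2.77, adjusted p = 0.436), 0.61 for Htr1a (95% interval -0.37 to 1.60, adjusted p = 0.535) and 0.20 for Htr3a (95% interval -0.25 to 0.64, adjusted p = 0.667). For Htr1b it was 0.30 (adjusted p = 0.510), and for Htr1d, Htr3b and Htr7 it lay between 0.02 and 0.12. Leaving out control SNI replicate 15 raised the calls over all genes to 1235, none of them among the 7.

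Levels of different genes were compared as CPM per kb of exon. Htr3a came first in every library, at 41.9 ± 10.4 CPM per kb in KO SNI, 42.8 ± 5.71 in control SNI, 65.8 ± 5.51 in KO naive and 77.0 ± 11.5 in control naive (SD). Htr1b, Htr1d and Htr3b followed in an order that was not stable. In control naive mice Htr3b was at 10.3, Htr1d at 9.61 and Htr1b at 8.03 CPM per kb, and Htr3b was above Htr1d in 3 of 5 libraries. In KO naive mice they lay between 8.46 and 9.07 CPM per kb, within their spread.

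Htr7 came next, at 3.71 CPM per kb in KO SNI, 3.46 in control SNI, 4.26 in KO naive and 4.34 in control naive. Htr1a was lower still, at 0.681 CPM per kb in KO SNI, 1.85 in control SNI, 0.546 in KO naive and 2.28 in control naive. Slc6a4 changed its place most. It was at 5.46 CPM per kb in KO SNI, above Htr7 in 2 of 3 libraries, and at 2.98 in control SNI, below Htr7 in 2 of 3 libraries. In naive ganglia it was among the lowest, at 0.0741 CPM per kb in KO and 0.0959 in control, with Htr2b at 0.0849 in KO naive and 0.228 in control naive. Htr2b was above Slc6a4 in 2 of 4 KO naive libraries and in 5 of 5 control naive libraries. With the length of the longest transcript in place of the exon union, Slc6a4 was at 8.84 CPM per kb in KO SNI, 4.83 in control SNI, 0.120 in KO naive and 0.155 in control naive, and in KO naive it was then above Htr2b (0.0869).

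Htr3a made up 50.6 ± 3.93% of the summed CPM per kb of 14 serotonin receptor genes in KO SNI and 50.8 ± 2.27% in control SNI (SD). Its share was 60.8 ± 2.51% in KO naive and 62.2 ± 3.13% in control naive. The shares of injured ganglia, 47.4 to 55.0%, lay below those of naive ganglia, 57.1 to 65.2%, in both genotypes. The sum itself was 82.3 ± 13.7 CPM per kb in KO SNI, 84.3 ± 9.64 in control SNI, 108 ± 5.89 in KO naive and 123 ± 13.7 in control naive. No test was made of these shares and sums.

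**Figure D5:**
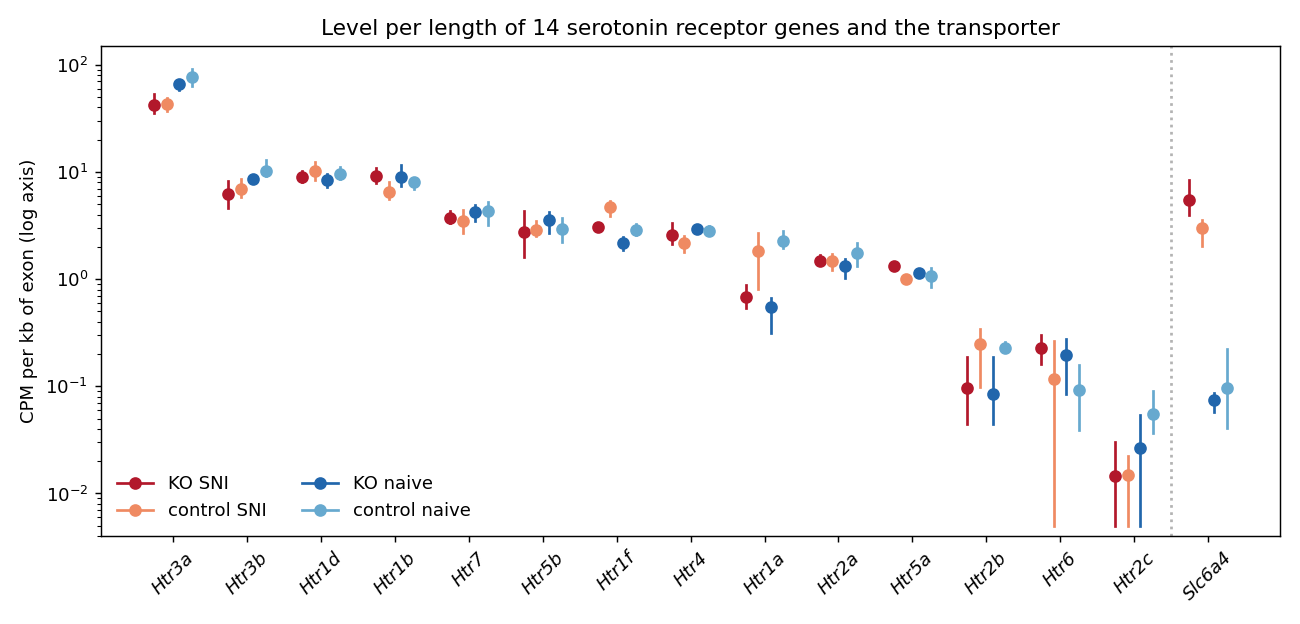
Level per length of 14 serotonin receptor genes and the transporter gene, in CPM per kb of exon on a log axis. Points are group means and lines run from the lowest to the highest library, and a line that reaches 0.005 includes a library with no counts. Htr3a is the highest receptor transcript in all 4 groups, and Slc6a4 is in the middle of the range in SNI groups and near its bottom in naive groups.

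Of the 7 other receptor genes, Htr1f, Htr2a, Htr4, Htr5a and Htr5b were tested, and Htr2c and Htr6 were too low. Htr1f, a further inhibitory 5-HT1 receptor, was the receptor gene that rose with injury: it averaged 7.97 ± 0.427 CPM in KO SNI, against 5.61 ± 0.643 CPM in KO naive, and 12.1 ± 1.92 CPM in control SNI, against 7.38 ± 0.728 CPM in control naive (SD). The log2 fold change was 0.51 in KO (SE 0.149, edgeR adjusted p = 0.0414) and 0.70 in control (SE 0.137, adjusted p = 0.00844). The KO call held under 13 of 22 alternatives, with adjusted p up to 0.161 (without KO SNI replicate 19), and the control call under 19 of 22, with adjusted p up to 0.319 (with Wnt1-Cre controls only). All KO values of Htr1f were below all control values in both states, with log2 fold changes of -0.58 after injury (adjusted p = 0.0803) and -0.39 in naive mice (adjusted p = 0.192), neither called. Such separation of KO and control occurred in 16.2% of tested genes after injury and in 9.63% in naive mice. Htr2a, which encodes the 5-HT2A receptor and has a miR-183-5p 8mer in its 3′ UTR, was not called in any comparison, and its log2 fold change was -0.38 in KO naive against control naive (adjusted p = 0.382).

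The machinery that makes, stores, clears or couples to serotonin was followed as a list of 63 other genes, of which 50 were tested. In KO naive against control naive, 2 of the 50 were called higher and 0 lower, with a list median of 0.07 beside 0.00 over all tested genes. In control SNI against control naive 1 was called higher and 1 lower, in KO SNI against KO naive 8 higher and 1 lower, and in KO SNI against control SNI 1 higher and 0 lower. The shares of all tested genes called were 1.89%, 2.48%, 10.1% and 1.04% in these comparisons, in the same order.

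Slc29a4, which encodes the plasma membrane monoamine transporter that takes up serotonin with low affinity and high capacity, was higher in KO in both states. It averaged 62.7 ± 5.98 CPM in KO SNI and 32.5 ± 5.37 CPM in control SNI, and the log2 ratio was 0.94 (SE 0.136, edgeR adjusted p = 0.00210). In naive mice it averaged 44.5 ± 4.17 CPM in KO and 30.1 ± 3.70 CPM in control, and the log2 ratio was 0.57 (SE 0.111, adjusted p = 0.0119). KO and control libraries did not overlap in either state, beside 16.2% of tested genes after injury and 9.63% in naive mice. The naive call held under 21 of 22 alternatives (adjusted p = 0.0638 without KO naive replicate 9), and the call after injury under 20 of 22, with adjusted p = 0.286 in a fit of the 2 groups alone and 0.0775 with Wnt1-Cre controls only. With injury it rose in KO (log2 fold change 0.50, adjusted p = 0.0183, and 0.0872 without KO SNI replicate 19) and was not called in control (0.12, adjusted p = 0.664), and the difference between these was not called (0.37, adjusted p = 0.370).

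Of the genes of serotonin synthesis, Tph1, Tph2 and Ddc were low in all groups, with Ddc at 1.14 CPM or less in the group means. Others of the synthesis and storage list were higher, such as Qdpr at 103 to 128 CPM in the group means. Tph2, the neuronal form of the enzyme that starts serotonin synthesis, averaged 1.70 CPM in KO SNI, 2.78 CPM in control SNI, 1.32 CPM in KO naive and 1.66 CPM in control naive, and the other form, Tph1, averaged 0.390 CPM or less in each group. None of the 8 tested genes of synthesis and storage and none of the 4 of breakdown was called in any comparison. At an unadjusted p under 0.05, 2 of the 4 breakdown genes, Maoa and Maob, passed in KO naive against control naive, beside 11.7% of all tested genes. Maob, a monoamine oxidase, averaged 5.86 ± 0.963 CPM in KO naive and 3.86 ± 0.779 CPM in control naive (log2 fold change 0.61, edgeR adjusted p = 0.137), and Maoa had a log2 fold change of 0.36 (adjusted p = 0.171).

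The receptor partners were 23 genes for G proteins, adenylyl cyclases, phospholipases, arrestins and others. None was called outside KO SNI against KO naive. In that comparison 5 were called, all higher, beside 10.1% of all tested genes. These were Gnai2 (log2 fold change 0.37), an inhibitory G protein subunit, the adenylyl cyclases Adcy3 (0.62), Adcy5 (0.45) and Adcy8 (0.64), and Arrb1 (0.52), a beta-arrestin that uncouples receptors. All 5 calls were lost without KO SNI replicate 19, with adjusted p between 0.0913 and 0.173. Of 6 genes for proteins reported to bind or regulate SERT, Fkbp4 fell with injury by 0.58 on the log2 scale in KO (adjusted p = 2.26e-04) and by 0.31 in control (adjusted p = 0.0416). The KO call held under all 22 alternatives and the control call under 5 of them. Tgfb1i1 rose with injury in KO (log2 fold change 0.36, adjusted p = 0.0162), a call that was lost without KO SNI replicate 19 (adjusted p = 0.0864). Ppp2ca, a catalytic subunit of protein phosphatase 2A, was higher in KO naive than in control naive (log2 fold change 0.30, adjusted p = 0.0343), which held under 13 of 22 alternatives.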

How the data were processed

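The authors deposited raw counts of reads by gene, whole numbers for 39179 identifiers in 15 libraries, with no other columns of values. Per the submitters' processing notes, TopHat2 2.0.4, HTSeq 0.6.1, SAMtools, Cufflinks, DESeq2 and GRCm38 were used. The library kit keeps strand, per the labels' protocols. How multiply mapped reads were counted, with which annotation and which strand setting, is not given in the sources used here.

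Symbols for 37693 identifiers, exon lengths and 3′ UTRs are from GENCODE M21. Of 27310 identifiers with a count, 16976 passed filterByExpr of edgeR 4.0.16 (minimum count of 10). A model of 4 group means with TMM factors was fitted to all libraries (robust quasi-likelihood F test, two-sided, 11 residual degrees of freedom). The SE is the log2 fold change divided by the square root of F, intervals are 95%, and log2 CPM used a prior count of 2. The 22 alternatives changed normalisation, filter, tool (DESeq2 1.42.0, limma 3.58.1 with voom), the groups in the fit or the libraries. The code was tested on simulated data, in R 4.3.3 and Python 3.11.15.

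The 8 genes and all lists were chosen with earlier results of these data known. Beside the 8, pathway genes called in any comparison, all receptor genes, and for each called gene the 3 of most similar pattern (mean of at least 1 CPM, no predicted, clone or sex-linked names) are named. Ddc, Maoa, Maob, Qdpr, Tph1, Tph2, Psmd1 and the cell markers named singly were chosen after their values were seen. So were the marker sums without some members and the 2 ratios and shares of receptor levels. Nothing in the labels says that replicates share a litter or day. Each library is 1 mouse.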

Additional observations from a re-analysis of the deposited data

Results flagged for a closer look

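Among 44 sets of 4 or 5 libraries searched, 1 value stood apart from the rest of its group, and about 1 in 20 groups is expected to hold such a value by chance. Htr2b measured 0.397 CPM in KO naive replicate 5, the highest of the 4 KO naive libraries. It rests on 4 counts, against 1 count in each of the other 3 libraries.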

How the results depend on the processing

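Of the values computed for the 7 tested genes under the alternatives, 717 kept their direction and side of the threshold, 10 gained a call, 4 lost one and 31 changed sign. The number of the 7 genes called in KO SNI against control SNI was 0, against 1 with DESeq2, 1 with Wnt1-Cre controls only and 0 to 1 when 1 library was left out. For injury in KO it was 2, against 1 to 3 when 1 library was left out. For injury in control it was 2, against 2 to 3 when 1 library was left out. Fewer were called for injury in control with Wnt1-Cre controls only, which leaves 1 injured control. Every sign change belonged to a value that was not called. With Wnt1-Cre controls only, Htr1a turned to 0.22 for injury in control, Htr7 to -0.26 for KO SNI against control SNI, and the difference of injury effects to -0.23 for Htr1d and -0.14 for Htr7. With 1 library left out, the log2 fold change ran from -0.12 to 0.054 (Htr7) and -0.58 to 0.20 (Slc6a4) in KO naive against control naive. It ran from -0.29 to 0.018 (Htr1d), -0.25 to 0.083 (Htr3a), -0.40 to 0.019 (Htr3b) and -0.086 to 0.33 (Htr7) in KO SNI against control SNI. For injury it ran from -0.13 to 0.17 in KO (Htr1b) and, in control, from -0.79 to 0.082 (Htr1a) and -0.10 to 0.21 (Htr1d). The difference of injury effects ran from -0.11 to 0.20 (Htr1d), -0.021 to 0.31 (Htr3a), -0.13 to 0.29 (Htr3b) and -0.057 to 0.36 (Htr7). The cause of these changes was not tested.

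Calls over all genes depended on the fit and on single libraries. In KO naive against control naive 321 genes were called, against 501 with DESeq2, 1017 in a fit of the 2 groups alone, 709 with Wnt1-Cre controls only and 151 to 708 when 1 library was left out. In KO SNI against KO naive 1717 were called, against 4438 with 2 groups, 4745 with Wnt1-Cre controls only and 587 (without KO SNI replicate 19) to 4409 (without control SNI replicate 23). In control SNI against control naive 421 were called, against 661 with DESeq2, 213 with 2 groups, 259 with Wnt1-Cre controls only and 283 to 1506 (without control SNI replicate 15). In KO SNI against control SNI 177 were called, against 942 with DESeq2, 0 with 2 groups, 74 with Wnt1-Cre controls only and 57 (without KO SNI replicate 19) to 3558 (without control SNI replicate 15). Per kb of the longest transcript, Slc6a4 was at 8.84 in KO SNI, 4.83 in control SNI and 0.120 in KO naive. No paired analysis was possible because the groups share no replicate numbers.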
